A study of Mus musculus with 7 samples.

Results

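The enzymes described here remove superoxide and peroxides from cells: the superoxide dismutases Sod1 and Sod2, catalase (Cat), the glutathione peroxidases Gpx1 and Gpx4, and the peroxiredoxins Prdx1, Prdx2, Prdx3, Prdx5 and Prdx6. The 10 genes were taken by symbol from the 23366 rows of each gene table, and all 10 passed the filter on low counts. The set was chosen with earlier results of these data known. RNA was sequenced from the liver of C57BL/6 mice aged 3 months (n = 4 libraries) and 21 months (n = 3 libraries), with no treatment or genetic change named in the labels. The libraries were strand-specific and made from mRNA enriched on beads. The labels give neither sex, feeding state nor hour of sampling, and do not state whether each library comes from its own animal. The p-values therefore measure only the spread between libraries, which may be technical. The comparison asks which of these transcripts differ between young adult and old liver.

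Superoxide leaks mainly from the respiratory chain and from oxidases, and dismutases turn it into hydrogen peroxide. Catalase splits hydrogen peroxide inside peroxisomes, where fatty acid and urate oxidation release it in hepatocytes. Glutathione peroxidases draw electrons from glutathione, and Gpx1 and Gpx4 carry selenocysteine. Most peroxiredoxins draw electrons from thioredoxin, so both families depend in the end on NADPH. Gpx4 reduces phospholipid hydroperoxides within membranes, and it is known for holding back ferroptosis, an iron-dependent form of cell death.

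Upstream sequence is shown for Gpx4 and Prdx5, the members that differed between the ages, and for Prdx1, a known target of the NRF2 factor. Each line gives the 250 bases before a gene start of the RefSeq table (build GRCm38.p6), read 5′ to 3′ on the gene's strand. Capitals mark the antioxidant response element core TGACNNNGC or the CCAAT box, searched on both strands with the 2 motifs free to overlap. Of the 10 members, 9 matched the table by symbol, with 12 windows among them; Prdx6 was not matched. The Gpx4 window is 1 of 4 starts listed for it, at chr10:80053315-80053564 on the plus strand. The Prdx5 window is chr19:6910107-6910356 on the minus strand, and the Prdx1 window is chr4:116685349-116685598 on the plus strand.
Gpx4: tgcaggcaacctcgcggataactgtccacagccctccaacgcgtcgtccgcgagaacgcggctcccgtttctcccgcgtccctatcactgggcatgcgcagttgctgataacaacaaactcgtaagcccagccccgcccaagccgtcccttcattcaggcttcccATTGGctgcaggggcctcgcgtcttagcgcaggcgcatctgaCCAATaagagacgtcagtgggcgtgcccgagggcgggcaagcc
Prdx5: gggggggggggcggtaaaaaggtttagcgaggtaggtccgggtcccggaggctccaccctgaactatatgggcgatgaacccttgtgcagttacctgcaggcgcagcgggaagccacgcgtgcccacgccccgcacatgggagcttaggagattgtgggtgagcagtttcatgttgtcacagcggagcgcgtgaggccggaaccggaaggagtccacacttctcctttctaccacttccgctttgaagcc
Prdx1: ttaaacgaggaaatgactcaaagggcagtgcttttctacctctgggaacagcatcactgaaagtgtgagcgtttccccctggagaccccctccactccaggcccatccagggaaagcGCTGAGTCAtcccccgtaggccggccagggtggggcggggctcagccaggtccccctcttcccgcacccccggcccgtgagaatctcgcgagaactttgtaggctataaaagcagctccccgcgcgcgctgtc
The antioxidant response element core was present in 2 of the 12 windows, those of Prdx1 and Sod1, and in 10.2% of all 32851 windows of that length. CCAAT boxes were present in 6 of the 12 windows, from 4 members (Sod1, Sod2, Cat and Gpx4), and in 33.8% of all windows. Windows at 2 of the Gpx4 starts overlap and share CCAAT boxes, so some sites are counted in both. The Gpx4 window shown holds 2 CCAAT boxes, 85 and 43 bases before the start, and the Prdx5 window holds neither motif. Along the chromosome, the windows of the 4 Gpx4 starts hold 1, 2, 3 and 0 CCAAT boxes. These matches describe the letters of the reference and are not measurements of binding.

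Most of the 10 transcripts belonged to the abundant part of the liver transcriptome. Levels between genes are given as TPM, a transcript share that is scaled for length and has the same total in each library. Gpx1, the main cytosolic glutathione peroxidase, had the highest level at 3 months (2721 ± 249 TPM, SD, n = 4) and at 21 months (3361 ± 111 TPM, n = 3). It was followed by Sod1, the copper and zinc dismutase of the cytosol (1845 ± 199 and 1912 ± 137 TPM), and by Cat (1655 ± 54.6 and 1876 ± 33.9 TPM). The mean ± SD ranges of Sod1 and Cat overlapped at both ages, though Sod1 stood above Cat within each 3-month library. By mean TPM these 3 genes ranked 46, 61 and 66 among all 23366 rows at 3 months, and 41, 68 and 70 at 21 months.

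The middle of the order changed between the ages. At 3 months Prdx1 (543 ± 61.0 TPM), Prdx5 (482 ± 31.7 TPM) and Gpx4 (480 ± 38.4 TPM) stood together, each neighbour within the spread of the next. At 21 months Gpx4 (754 ± 73.0 TPM) and Prdx1 (696 ± 105 TPM) stood together above Prdx5 (347 ± 31.3 TPM), which now overlapped with Prdx6 (328 ± 16.4 TPM, against 256 ± 10.7 TPM at 3 months). Library by library, Gpx4 was below Prdx1 throughout at 3 months and above it throughout at 21 months. Among all rows Gpx4 moved from rank 237 to 157 by mean TPM, and Prdx5 from 236 to 364. The lowest levels at both ages were those of Prdx2 (133 ± 8.23 and 147 ± 12.8 TPM) and of the mitochondrial enzymes Prdx3 (77.1 ± 12.7 and 101 ± 17.2 TPM) and Sod2 (67.5 ± 3.49 and 65.2 ± 3.50 TPM). Prdx3 and Sod2 overlapped at 3 months and stood apart at 21 months.

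**Figure D1:**
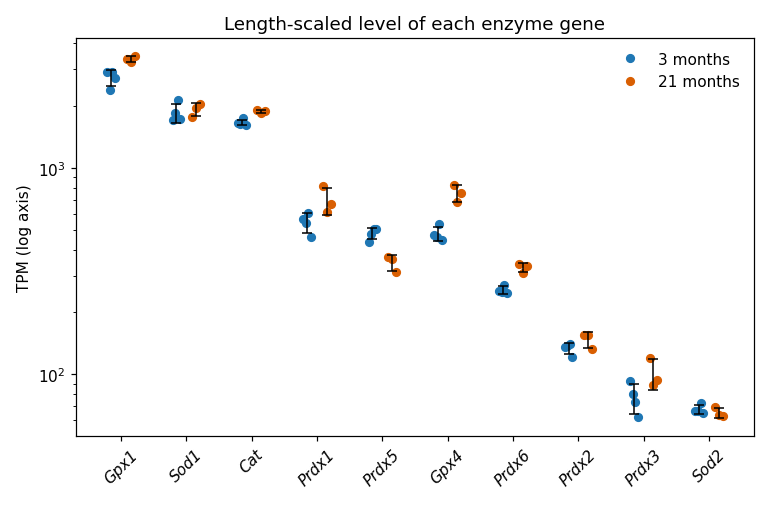
Length-scaled level (TPM, log axis) of the 10 enzyme genes, ordered by their mean at 3 months; points are libraries (blue, 3 months; orange, 21 months) and black bars show mean ± SD. Gpx4 and Prdx5 were level at 3 months (480 and 482 TPM) and stood apart at 21 months (754 and 347 TPM).

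In the test of each gene between ages, 2 of the 10 members passed: Gpx4 rose and Prdx5 fell. The test was edgeR's quasi-likelihood test on the expected counts, with Benjamini-Hochberg adjustment over 11251 genes and a threshold of 0.05, and it called 11.3% of all genes tested, 5.47% higher and 5.86% lower at 21 months. The share of members is thus 1 of 10 in each direction. The median log2 fold change of the members was 0.12, against -0.0015 for all genes tested, and 7 of 10 were above 0. The members' median fell to 0.040 without 21-month library 1 and to 0.057 without 3-month library 2. Within-gene values below are CPM, counts scaled to library size by TMM but not for length, and log2 fold changes are given as old minus young. In bulk liver, fewer cells of a type and less RNA per cell cannot be told apart.

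**Figure D2:**
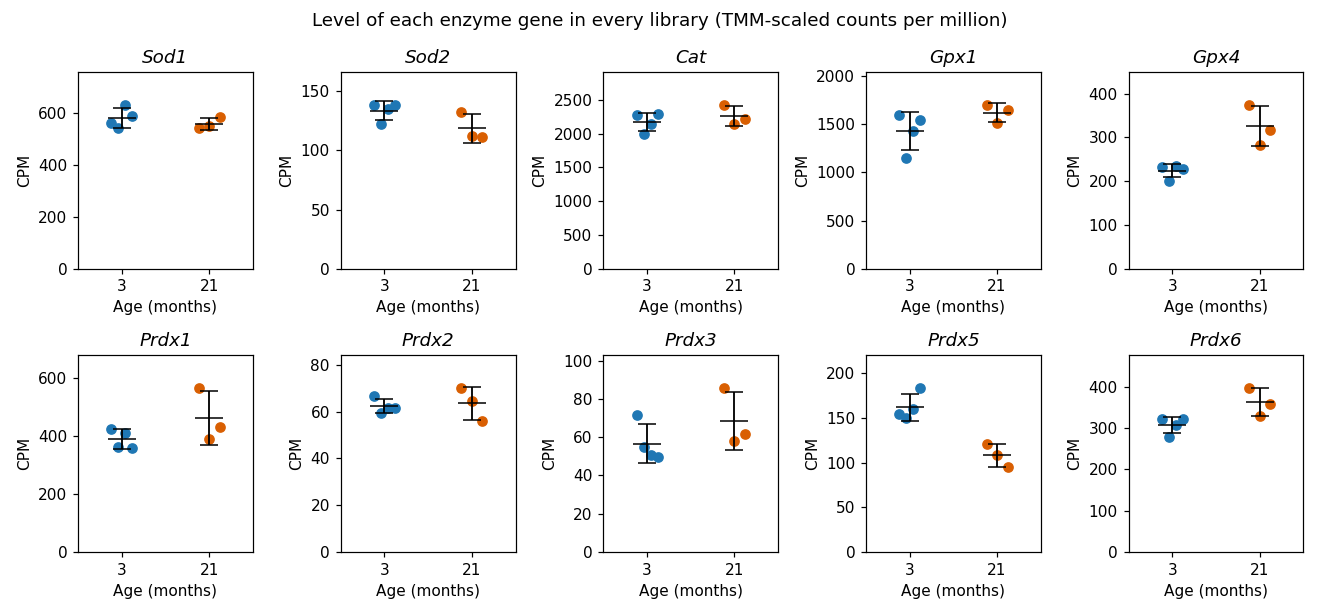
Level of each enzyme gene in every library in CPM (axes start at 0); points are libraries at 3 months (blue, n = 4) and 21 months (orange, n = 3), black bars mean ± SD. The ages do not overlap for Gpx4, Prdx5 and Prdx6.

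Gpx4 stood at 232, 202, 235 and 227 CPM in the 3-month libraries 1 to 4 and at 375, 284 and 318 CPM in the 21-month libraries 1 to 3. The lowest old library was above the highest young one. The mean went from 224 ± 15.4 (SD, n = 4) to 326 ± 46.1 CPM (SD, n = 3), a 1.45-fold rise (log2 fold change 0.54 ± 0.11 SE, edgeR adjusted p = 0.00545). The rise held in the fit without any 1 of the 7 libraries, with log2 fold changes of 0.43 to 0.65, the smallest of them without 21-month library 1. The Gpx4 row joins 2 RefSeq transcripts, and its abundance-weighted length was 937.00 to 937.72 bases over the 7 libraries.

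Prdx5, an atypical peroxiredoxin found in mitochondria, peroxisomes and cytosol, moved the other way. It stood at 155, 150, 160 and 184 CPM at 3 months and at 121, 108 and 95.3 CPM at 21 months. Every old library was below every young one. The mean went from 162 ± 15.1 to 108 ± 12.7 CPM, a fall past the threshold (log2 fold change -0.58 ± 0.11 SE, edgeR adjusted p = 0.00365). Without any 1 library the log2 fold change was -0.67 to -0.48 and the call held. It was lost (edgeR adjusted p = 0.0824, log2 fold change -0.48 ± 0.14 SE) with a covariate for the effective length shortfall, the number of bases by which a gene's effective length falls short of its length in a library. That shortfall was 34.4 to 38.8 bases at 3 months and 35.4, 30.9 and 21.4 bases in the 21-month libraries 1 to 3, and the call of Gpx4 held with the covariate (log2 fold change 0.60 ± 0.14 SE, edgeR adjusted p = 0.0420).

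Prdx5 is among the shortest of the transcripts, at 688 bases, and short transcripts as a class lay slightly lower at 21 months. The 225 genes tested with lengths from 500 up to 700 bases had a median log2 fold change of -0.12, with 10.7% called lower and 6.67% called higher, beside 5.86% and 5.47% of all genes. Sod1, at 648 bases, lies in the same range, with a log2 fold change of -0.06 ± 0.09 SE. The 506 genes from 700 up to 1000 bases, which include Gpx4 (937 bases) and Prdx2 (942 bases), had a median of -0.0065. The part of length in the fall of Prdx5 was not tested.

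**Figure D3:**
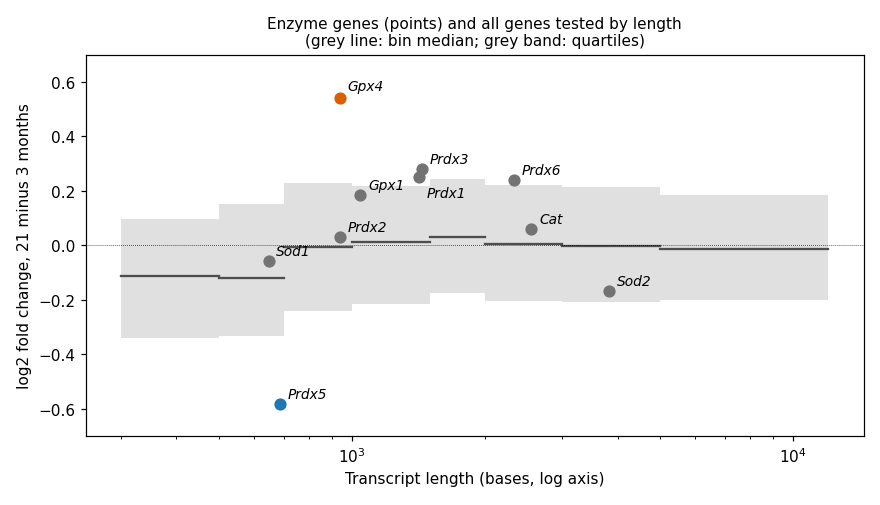
Log2 fold change (21 minus 3 months) against transcript length (log axis) for the 10 enzyme genes (points; orange higher, blue lower, dark grey not called), over the median (grey line) and quartiles (grey band) of all genes tested in each length range. Prdx5 at 688 bases lies far below the median of its range (-0.12), while Sod1 at 648 bases lies near 0.

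The enzymes that act on superoxide itself, the dismutases, showed no call. Sod1 stood at 561, 541, 631 and 586 CPM at 3 months and at 540, 547 and 584 CPM at 21 months, so that the ages overlapped (edgeR adjusted p = 0.760). Its 95% interval for the log2 fold change ran from -0.26 to 0.15. Sod2, the manganese dismutase of the mitochondrial matrix, stood at 139, 122, 135 and 139 CPM at 3 months and at 133, 112 and 111 CPM at 21 months. Old libraries 2 and 3 lay below all young ones and old library 1 among them (log2 fold change -0.17, interval -0.38 to 0.04, edgeR adjusted p = 0.299).

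The main enzymes for hydrogen peroxide in hepatocytes also showed no call. Cat stood at 2273, 2001, 2143 and 2288 CPM at 3 months and at 2429, 2146 and 2219 CPM at 21 months. The ages overlapped, with a log2 fold change of 0.06 (interval -0.16 to 0.28, edgeR adjusted p = 0.774). Gpx1 stood at 1592, 1154, 1429 and 1542 CPM at 3 months and at 1704, 1517 and 1645 CPM at 21 months. Young library 2 was the lowest by a wide margin, and the log2 fold change was 0.18 (interval -0.07 to 0.43, edgeR adjusted p = 0.353).

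Among the thioredoxin-dependent peroxiredoxins of the typical 2-cysteine type, none was called. Prdx1, a cytosolic enzyme, stood at 426, 363, 409 and 358 CPM at 3 months and at 566, 389 and 432 CPM at 21 months. Old library 1 stood above all others and old library 2 within the young range (log2 fold change 0.25, interval -0.01 to 0.51, edgeR adjusted p = 0.215; 0.076 without old library 1). Prdx2, known as an abundant protein of red blood cells, stood at 66.8, 59.6, 61.7 and 61.7 CPM at 3 months and at 70.2, 64.7 and 56.1 CPM at 21 months, with full overlap (log2 fold change 0.03, interval -0.19 to 0.25, edgeR adjusted p = 0.896). Prdx3, the enzyme of the mitochondrial matrix, stood at 71.4, 54.7, 50.8 and 49.5 CPM at 3 months and at 85.7, 57.8 and 61.7 CPM at 21 months. Library 1 was the highest of its age in both groups, and the log2 fold change was 0.28 (interval -0.06 to 0.62, edgeR adjusted p = 0.288). Without old library 1 it was 0.081.

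Prdx6, the 1-cysteine enzyme, which uses glutathione and also has phospholipase activity, lay between these cases. It stood at 321, 279, 306 and 322 CPM at 3 months and at 397, 330 and 359 CPM at 21 months. The ages did not overlap, yet the difference did not pass over all genes (log2 fold change 0.24, interval 0.03 to 0.45, edgeR adjusted p = 0.133). Together 2 members lay higher without overlap, Gpx4 and Prdx6, where 11.3% of all genes did, and 1 lay lower, Prdx5, where 12.8% of all genes did. On the TPM scale Prdx6 was called higher (log2 fold change 0.36 on log2(TPM + 1), limma adjusted p = 0.0289), where 9.63% of all genes were called and 7.14% were called higher. Prdx6b, a close copy that could share reads with it, held 5.01 to 14.0 expected counts per library against 1514 to 4029 for Prdx6.

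**Figure D4:**
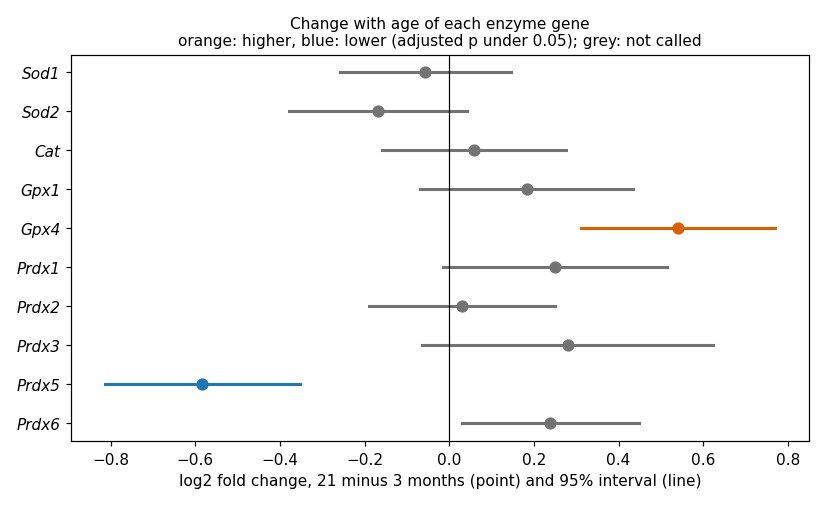
Log2 fold change (21 minus 3 months) of each enzyme gene with its 95% interval from edgeR's quasi-likelihood fit; orange marks a gene called higher and blue one called lower (adjusted p under 0.05 over all genes), grey a gene not called. The intervals of Gpx4 (0.31 to 0.77) and Prdx5 (-0.81 to -0.35) lie farthest from 0, and that of Prdx6 (0.03 to 0.45) lies above 0 without a call.

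The TPM values put more members higher at 21 months. On the TPM scale the median gene itself lay 0.10 higher at 21 months on the log2 scale. There the ages did not overlap for 5 members that were higher (Cat, Gpx1, Gpx4, Prdx1 and Prdx6) and 1 that was lower (Prdx5), beside 16.9% and 6.53% of all genes. The summed level of the 10 members was 8256, 7872, 8964 and 7945 TPM in the 3-month libraries and 9720, 9301 and 9741 TPM in the 21-month libraries. This was 0.826% of all TPM at 3 months and 0.959% at 21 months, a mean log2 difference of 0.22 with an SD between libraries of 0.07. With FPKM in place of TPM the difference was 0.12, and the ages overlapped for Cat and Prdx1. By family, the glutathione peroxidases summed to 2834 to 3438 TPM in young and 3936 to 4226 TPM in old libraries. The typical 2-cysteine peroxiredoxins summed to 643 to 818 TPM in young and 851 to 1087 TPM in old libraries. Catalase (1607 to 1733 and 1840 to 1907 TPM) and the 1-cysteine Prdx6 (247 to 271 and 310 to 341 TPM) were also higher without overlap, and Prdx5 was lower (438 to 506 and 311 to 370 TPM). The dismutases overlapped at 1760 to 2198 and 1832 to 2096 TPM.

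In CPM the members tended to share their high and low libraries. Of the 10 members, 9 were highest in library 1 among the 21-month libraries, the exception being Sod1. Among the 3-month libraries, 8 were lowest in library 2. The share of all genes that did so was not counted. In TPM, only Gpx1 was lowest in 3-month library 2. Sod2, Cat, Gpx4, Prdx1, Prdx2, Prdx3 and Prdx6 were lowest in 3-month library 4, and Sod1 and Prdx5 in 3-month library 1. Gpx1, Prdx2 and Sod1 were not highest in 21-month library 1 in TPM. The summed markers of other liver cells, in CPM, also differed in 21-month library 1 and 3-month library 2. Macrophage and Kupffer cell markers summed to 207 CPM in old library 1, against 603 and 441 CPM in the other 2, and to 517 CPM in young library 2, against 333 to 380 CPM in the other young libraries. Endothelial markers summed to 157 CPM in old library 1, against 327 and 289 CPM in the other 2. Their part in the levels of the members was not tested. Without old library 1 the log2 fold change of Gpx4 was 0.43 and that of Prdx5 was -0.67, and both were called.

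The genes most like the 2 changed members across libraries were found among 8760 other genes with a mean of at least 5 CPM, by Pearson's r of log2 CPM over the 7 libraries. For Gpx4 they were Mettl7b (r = 0.989), the ceramide synthase gene Cers2 (r = 0.986) and the phosphoglucomutase gene Pgm2 (r = 0.984), with log2 fold changes of 0.45, 0.38 and 0.17. For Prdx5 they were the ribosomal protein gene Rpl36 (r = 0.991), the nucleolar GTPase gene Gnl3 (r = 0.990) and Gtf2e2 (r = 0.988), a subunit of a general transcription factor, with log2 fold changes of -0.68, -1.30 and -0.76. An r above 0.9 was found for 229 genes with Gpx4 and for 379 with Prdx5; all these values share the same 7 libraries and the same split by age.

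The enzymes work with partners that supply electrons, metals and selenium, and these were followed in 8 lists. Of 131 companion genes named, 110 were tested; 8 rose and 3 fell, which is 7.27% and 2.73% beside 5.47% and 5.86% of all genes. Their median log2 fold change was 0.06. Of these 11 calls, Glrx alone held with the effective length shortfall as a covariate. Most fold changes were as large or nearly so in that fit, such as 1.29 for Gpx3 (1.16 without the covariate) and -0.74 for Cox17 (-0.57), and those of Dio1 (-0.45, from -0.66) and Selk (-0.27, from -0.45) were smaller. Of other members of the same families, 4 of 11 were tested and 1 rose: Gpx3, the secreted glutathione peroxidase, at 2.43 to 4.54 CPM in young and 6.30 to 11.9 CPM in old libraries (2.24-fold, edgeR adjusted p = 0.0112). The others, Sod3, Prdx4 and Ccs, the copper chaperone of Sod1, were not called.

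Genes that make and recycle glutathione were mostly uncalled, with 2 of 16 higher and 0 lower. The rises were Ggt6, of the gamma-glutamyltransferase family (19.4 ± 4.55 to 31.7 ± 1.93 CPM, edgeR adjusted p = 0.00670), and the glutaredoxin Glrx (24.3 ± 3.86 to 35.6 ± 6.13 CPM, edgeR adjusted p = 0.0243). The call of Glrx was lost without 3-month library 3 or 4 or 21-month library 1 or 3 (edgeR adjusted p = 0.0550 to 0.0789). Glutathione reductase, Gsr, which restores the glutathione that Gpx1 and Gpx4 oxidise, had a log2 fold change of -0.33 (edgeR adjusted p = 0.0572). Gclc, which sets the rate of synthesis, had one of 0.12 (edgeR adjusted p = 0.693). For Gclm, from the same list, it was 0.27 (edgeR adjusted p = 0.0619).

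In the thioredoxin system, which reduces Prdx1, Prdx2, Prdx3 and Prdx5, 1 of 14 genes rose and 0 fell. It was Srxn1, sulfiredoxin, which repairs overoxidised typical peroxiredoxins, at 13.8 to 24.6 CPM in young and 32.4 to 38.0 CPM in old libraries (1.65-fold, edgeR adjusted p = 0.0110). The thioredoxins Txn1 and Txn2 had log2 fold changes of 0.20 and 0.02, and the reductases Txnrd1 and Txnrd2 had -0.11 and 0.08, all uncalled. Of 14 tested genes of NADPH supply 1 rose, the NAD kinase gene Nadk, from 144 ± 12.9 to 194 ± 6.24 CPM (edgeR adjusted p = 0.0110), and 0 fell.

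Gpx1 and Gpx4 need the selenocysteine machinery, in which 0 of 10 genes were called by edgeR. The smallest p-value there was that of Eefsec, the elongation factor for selenocysteine (27.2 ± 2.63 and 33.7 ± 1.03 CPM, edgeR adjusted p = 0.0800), and limma voom with sample weights called it (limma adjusted p = 0.0391). Other selenoproteins went both ways, with 1 of 9 tested higher and 2 lower. Msrb1, a methionine sulfoxide reductase, rose from 155 ± 5.53 to 201 ± 14.96 CPM (edgeR adjusted p = 0.0157), a call lost without 3-month library 3 (0.0595). Dio1, a deiodinase that activates thyroid hormone, fell from 97.8 ± 16.8 to 61.7 ± 12.3 CPM (edgeR adjusted p = 0.0225). Selk, an endoplasmic reticulum selenoprotein, went from 59.1 ± 5.70 to 43.2 ± 9.42 CPM (edgeR adjusted p = 0.0431), a call that held in only 4 of 20 alternative fits and was lost with the replicate block (0.0750). The call of Dio1 was lost without 3-month library 1 or 4 or 21-month library 3 (edgeR adjusted p = 0.0515 to 0.0760).

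Enzymes that produce hydrogen peroxide or superoxide showed 1 rise and 0 falls among 24 tested. Nox4, a peroxide-producing NADPH oxidase, rose from 19.7 ± 1.69 to 27.6 ± 1.60 CPM (edgeR adjusted p = 0.0162), a call lost without 3-month library 3 (0.0549). Urate oxidase, Uox, was not called (log2 fold change 0.23, edgeR adjusted p = 0.212). Of 19 genes of copper, manganese, haem and iron supply, 1 rose and 1 fell. The copper importer Slc31a1 rose from 113 ± 4.08 to 139 ± 2.52 CPM (edgeR adjusted p = 0.0377), a call lost with the replicate block (0.0808) and without any of the 3-month libraries or 21-month library 3 (0.0618 to 0.103). The copper chaperone Cox17 fell from 17.0 ± 2.21 to 11.3 ± 1.86 CPM (edgeR adjusted p = 0.0301), a call lost without 3-month library 1, 3 or 4 or 21-month library 2 or 3 (edgeR adjusted p up to 0.101).

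**Figure D5:**
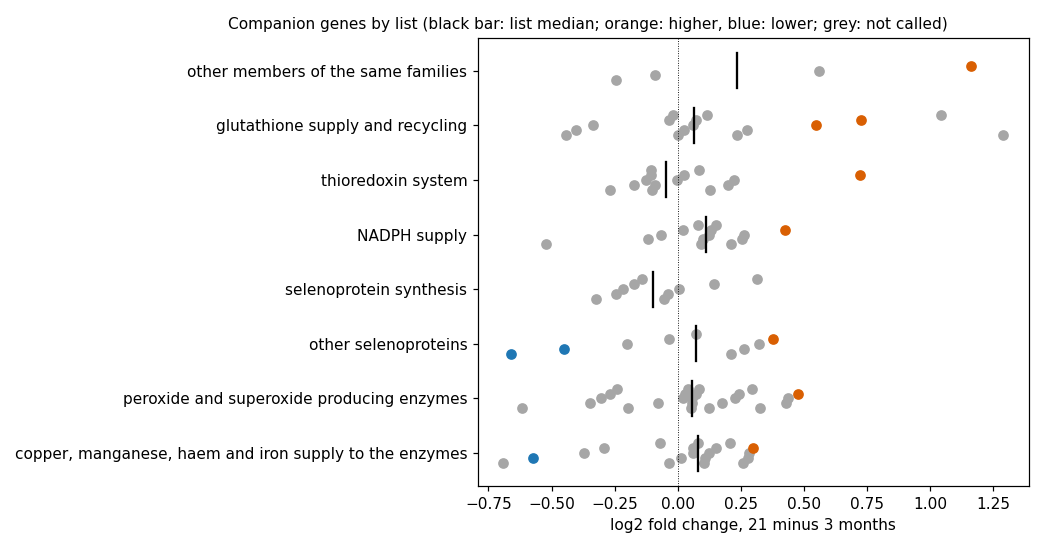
Log2 fold change (21 minus 3 months) of the companion genes tested, by list; each point is a gene (orange higher, blue lower, grey not called by edgeR's adjusted p) and black bars are list medians. The medians lie near 0 in all lists but that of other family members (0.23, over 4 genes), and single genes such as Gpx3 and Srxn1 stand apart.

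Marker genes were checked against the tissue label. Hepatocyte markers summed to 62095 to 74784 CPM in young and 78142 to 83838 CPM in old libraries, led by albumin (Alb), and 1 of 11 tested was higher and 1 lower. Without Alb the sums went the other way, with 30858 to 33353 CPM in young and 26533 to 30168 CPM in old libraries, and the median log2 fold change of the 11 markers was -0.10. Red blood cell markers, led by Hba-a1, overlapped (677 to 1886 and 1080 to 1366 CPM), with 0 of 9 tested called. Macrophage, neutrophil, T and NK cell, endothelial, stellate and adipocyte sums overlapped as well; 1 of 9 endothelial markers fell, 1 of 9 stellate markers rose, and none of the 12, 2, 1 and 2 tested in the other lists was called. Without Cd4, the top T and NK cell marker, the sums of that list did not overlap (1.14 to 1.72 and 2.86 to 4.75 CPM). The genes left in it had not passed the filter on low counts. Markers of B and plasma cells summed to 3.08 to 4.45 CPM in young and 9.07 to 43.4 CPM in old libraries, led by Igj, and 1 of 2 tested rose. Without Igj the B and plasma cell sums overlapped (2.92 to 4.45 and 4.14 to 19.97 CPM). Markers of bile duct summed to 31.8 to 46.4 and 28.9 to 31.6 CPM, led by Spp1, and 1 of 4 tested fell. No marker present in the tables was at 0 in all 7 libraries. The part of these shifts in the changes of Gpx4 and Prdx5 was not tested.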

How the data were processed

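The deposited tables hold, per gene, expected counts (estimated read counts, of which 84.4% to 88.1% per library were exact whole numbers as printed), TPM and FPKM, with length and effective length in bases as other columns, per the file headers. TopHat, RSEM, edgeR and the build mm9 are named by the submitters' processing notes; their versions and roles were not stated. Libraries held 4724687 to 11143125 expected counts, and the members 251 to 24654 counts each. The ribosomal RNA row Rn45s took 18.7% to 25.6% of the expected counts of a library.

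Expected counts were rounded, filtered with edgeR's filterByExpr (minimum count 10, minimum total 15), scaled by TMM and tested with the robust quasi-likelihood test (R 4.3.3, edgeR 4.0.16; alternatives with limma 3.58.1 and DESeq2 1.42.0). The SE is the log2 fold change over the root of F, and the 95% interval uses that test's degrees of freedom. The script was tested on simulated data. TPM and FPKM deposited by the authors served for levels between genes, and TPM for log2(TPM + 1) tests with limma. Figures used Python 3.11.15 and matplotlib 3.10.9.

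Named genes were the members, up to 3 called genes per companion list with the smallest adjusted p (or the smallest p where none was called), the 3 genes most like each called member and the top marker per list; others named were chosen after their values were seen. Members and lists were chosen with earlier results of these data known. The labels do not say what a replicate number marks. Same-numbered libraries deviated together across genes (r = 0.107, 0.174 and 0.104 for numbers 1, 2 and 3), though 3-month library 4 and 21-month library 1 reached 0.159, so pairing is uncertain and a replicate block was fitted as well. Other alternatives were 2 scalings, 2 filters, no robust estimation, removal of ribosomal RNA rows and Lars2, the length covariate and each library left out.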

Additional observations from a re-analysis of the deposited data

How the results depend on the processing

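Gpx4 was called higher in all 20 alternative fits (log2 fold change 0.43 to 0.65), and Prdx5 lower in 19 of 20 (-0.67 to -0.47). With the replicate block the log2 fold changes were 0.54 for Gpx4 and -0.52 for Prdx5, and the block changed no call among the members; among named companions it ended those of Selk and Slc31a1. Signs turned for uncalled members: Sod1 to 0.055 with limma on TPM at pseudocounts 1 and 0.1, and Prdx2 to -0.064 with voom sample weights and to -0.049 without 21-month replicate 1 (-0.049 to 0.13 over all fits without 1 library). With the effective length shortfall as a covariate, 1 member, 1 companion gene and 332 of all genes were called, against 2, 11 and 1274; the cause was not tested. With voom sample weights 19 companion genes and 2038 of all genes were called. Leaving out 1 library gave 2 member calls each time, 5 to 16 companion calls and 580 to 1642 calls over all genes, fewest without 21-month replicate 3. On the TPM scale 74.1% of calls over all genes were higher, against 48.3% here. The rise of the members' summed level was 0.22 in TPM and 0.12 in FPKM on the log2 scale. All members had at least 251 counts in every library.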
